A study of Mus musculus with 51 samples.

Results

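The chromatin loops described here are the long-range loops of *Dmrt1*-/- Sertoli cells, defined as pairs of 10 kb windows (anchors) on 1 chromosome whose starts lie 400 kb or more apart. The deposited Hi-C list holds 4291 interactions, and 1049 of them (24.4%) reached that span. The choice used distance alone, so neither sequence nor gene expression entered it. The other 3242 interactions, of 120 to 390 kb, are called shorter loops.

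DMRT1 is a transcription factor that keeps postnatal Sertoli cells, the supporting cells of the testis tubule, from turning into granulosa-like cells, the supporting cells of the ovary. The study isolated Sertoli cells at P7 (postnatal day 7) from mice of a mixed 129Sv and C57Bl/6J background, by dissociating tubules and removing germ cells with beads. The null RNA libraries came from *Dmrt1* f/f mice and the control libraries from *Dmrt1* f/+ mice, and both groups carried *Dhh-Cre*, which acts in Sertoli cells, and a Cre-activated tdTomato reporter. The controls thus have 1 floxed allele and the same Cre, although their titles read +/+. The study describes the P7 groups as heterozygous and homozygous mutants, so control here does not mean wild type. Messenger RNA was counted in 3 libraries of each group, and the Hi-C list pools 4 samples (2 replicates, each in a pair) whose genotype is given as *Dmrt1*-/-. The study's Hi-C contact maps label the mutant P7 Sertoli cells *Dmrt1* f/f with *Dhh-Cre*, the same alleles as in the null RNA libraries. The protocol text of the Hi-C samples names granulosa cells, while their title, source and tissue and the study's methods name Sertoli cells. Hi-C of control cells was not analysed here, so no loop is compared between genotypes, and the list gives no score, count or p for a loop. *Dmrt1* itself, which lies in none of the long-range loops, stood at 178, 171 and 268 CPM (a library's counts scaled to a common total, with trimmed means to set the scale) in control libraries and at 24.6, 38.0 and 22.1 CPM in null libraries. That is a log2 fold change of -2.87 (SE 0.27) with an adjusted p of 0.00146 in edgeR's quasi-likelihood test, and the counts cover the whole gene, deleted part and rest alike.

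Chromatin loops form when cohesin, a ring-shaped protein complex, draws in DNA until it meets the zinc finger protein CTCF bound to its motif. A stable loop usually has a pair of CTCF motifs that point towards each other, 1 at each anchor, and it can bring a distant enhancer to a promoter or keep neighbouring domains apart. Other long-range contacts join promoters with enhancers, or join genes that are silenced by Polycomb complexes. The 12-letter core of the CTCF motif was therefore looked for in each anchor on both strands of the GRCm38 genome.

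The loops whose anchors hold a gene called between genotypes (29 loops, described further on) show what such a motif looks like. Of these loops, 8 held a core at 1 anchor and none at both, and 6 of the cores are printed. In each line the core is in capitals, the 10 bases on either side are in lower case, and the strand is that on which the core reads 5′ to 3′.
*Epha4* loop of 1860 kb, left anchor, plus strand: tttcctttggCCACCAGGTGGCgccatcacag
*Gm45716* loop of 430 kb, left anchor, plus strand: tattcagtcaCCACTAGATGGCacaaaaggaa
*Foxc1* loop of 610 kb, right anchor, minus strand: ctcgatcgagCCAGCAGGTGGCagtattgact
*Serpinb9* loop of 760 kb, right anchor, minus strand: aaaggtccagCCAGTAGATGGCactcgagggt
*Cldn11* loop of 460 kb, right anchor, minus strand: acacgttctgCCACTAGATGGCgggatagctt
*Sema3a* loop of 560 kb, left anchor, plus strand: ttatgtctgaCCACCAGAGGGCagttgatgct
In the order printed they lie at chr1:75653730-75653761, chr11:90183558-90183589, chr13:32411772-32411803, chr13:33762969-33763000, chr3:31603413-31603444 and chr5:12562356-12562387 of GRCm38. All 6 cores point into their loop, plus at a left anchor or minus at a right anchor. The *Gm45716* core lies in the anchor that holds the gene's start site, and the other 5 lie in the anchor facing the gene. Of the 2 cores not printed, that of the *Setbp1* loop pointed into its loop and that of the *Zfp608* loop pointed out.

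The anchor at *Bcl6*, which encodes a transcriptional repressor, gives the clearest example of inward-pointing pairs, and it was picked for display after its values were seen. It was joined to 4 anchors to its right, and those at 1080, 1280 and 1360 kb hold a single core each, as the *Bcl6* anchor does. The fourth, at 410 kb and at the start site of *Lpp*, holds no core and is not shown.
*Bcl6* anchor, left end of the loops, plus strand: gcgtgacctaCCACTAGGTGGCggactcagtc
Right anchor at 1080 kb, minus strand: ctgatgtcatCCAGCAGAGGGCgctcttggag
Right anchor at 1280 kb, minus strand: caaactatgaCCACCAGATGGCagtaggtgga
Right anchor at 1360 kb, minus strand: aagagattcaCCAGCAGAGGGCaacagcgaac
These lie at chr16:23984353-23984384, chr16:25064740-25064771, chr16:25263942-25263973 and chr16:25349800-25349831. A single plus-strand core thus faced minus-strand cores at 3 distances. *Bcl6* had 6.53, 4.43 and 8.45 CPM in control libraries and 9.59, 13.7 and 13.9 CPM in null libraries, a log2 fold change of 0.93 (SE 0.32) that did not pass the test (adjusted p = 0.143).

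The 1049 long-range loops spanned 400 to 1890 kb, with a median of 580 kb and quartiles of 470 and 800 kb. Spans of 500 kb or more were found for 716 loops, of 1000 kb or more for 131 and of 1500 kb or more for 22. The threshold cuts a falling slope and not a gap, since 44 loops spanned exactly 400 kb and 29 spanned 390 kb. The first 3 loops at 400 kb by position lie on chromosome 1 and start at 79780001, 127820001 and 143800001, and the first 3 at 390 kb start at 61370001 on chromosome 1 and at 21600001 and 60300001 on chromosome 10. Shorter loops had a median span of 190 kb. The 5 longest loops ran over 1890 kb on chromosome 16 (42160001 to 44060000), 1870 kb on chromosome 3 (135880001 to 137760000), 1860 kb on chromosome 1 (75650001 to 77520000), 1810 kb on chromosome 13 (4660001 to 6480000) and 1710 kb on chromosome 2 (170510001 to 172230000). The third of these ends at *Epha4*, which is described below.

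Long-range loops together covered 20.1% of chromosomes 1 to 19 and X, at 3.98 loops per 10 Mb. They were most dense on chromosomes 15 (6.44 per 10 Mb), 13 (6.39) and 10 (5.74) and least dense on the X chromosome (0.76) and chromosome 7 (2.34). The share of a chromosome's loops that were long-range ran from 15.9% on chromosome 7 to 34.7% on chromosome 13. The X chromosome carried 13 long-range loops among 78, or 16.7%, so loops of both lengths were few there.

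**Figure D1:**
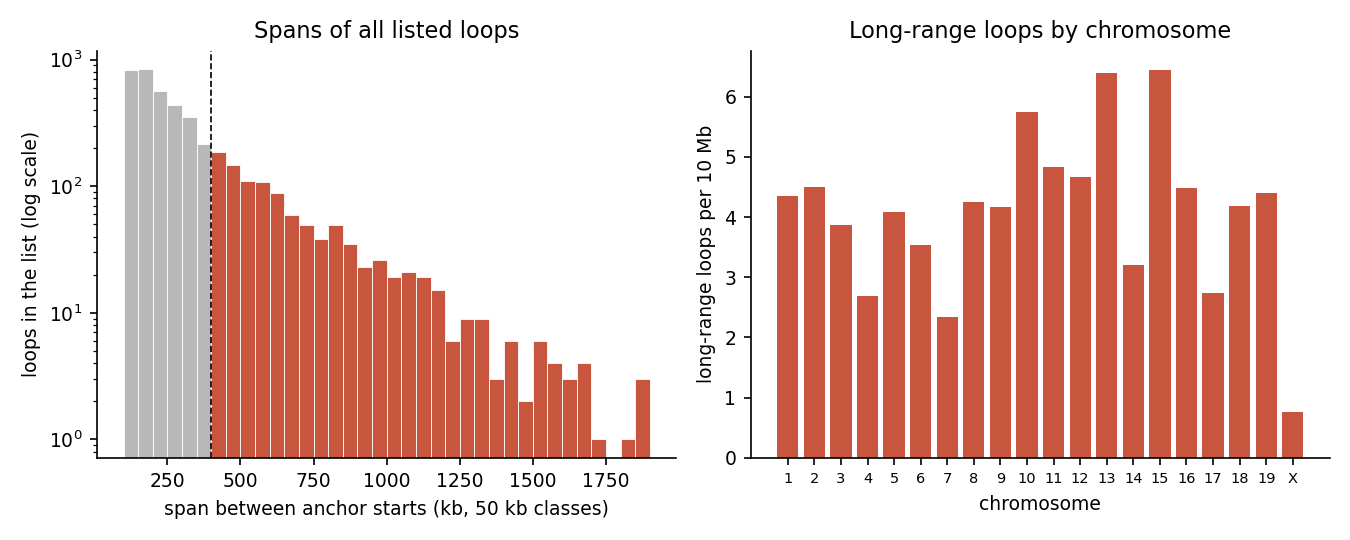
Left, number of listed loops (log scale) in 50 kb classes of span, with the 1049 loops of 400 kb or more in red and the threshold dashed; the counts fall steadily across it. Right, long-range loops per 10 Mb of each chromosome, highest on chromosome 15 (6.44) and lowest on the X chromosome (0.76).

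The loops used 1874 different anchor windows, and 446 of these (23.8%) were also anchors of shorter loops. Most anchors, 1679, served 1 long-range loop, 171 served 2, 20 served 3, 3 served 4 and 1 served 5. Another listed loop lay within the span of 632 long-range loops (60.2%), with up to 8 inside a single one. For 12 loops, a chain of 2 shorter loops that meet at an anchor joined the same ends.

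CTCF cores were found at 505 of the 1874 long-range anchors (26.9%). The share was 26.5% at the 5351 anchors used by shorter loops only and 4.57% over all 263369 windows of 10 kb on the same chromosomes. The median GC content was 43.3% at long-range anchors, 45.5% at anchors of shorter loops only and 41.2% over all windows, so both kinds of anchor were above all windows in GC and in cores, and the part of composition in the core counts was not tested. An anchor without a match holds none of these exact letters, which says nothing of CTCF binding there. Both anchors held a core in 83 long-range loops (7.91%, with a 95% Wilson interval of 6.43 to 9.70% that covers counting error only and treats loops with a shared anchor as separate), 1 anchor did in 406 and neither did in 560. Among shorter loops both anchors held a core in 268 of 3242 (8.27%).

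In 76 of the 83 loops each anchor held cores of a single strand, so that their order could be read. Of these 76 loops, 58 (76.3%) had cores that point towards each other, 17 had both on the same strand and 1 had them pointing apart. Among shorter loops 176 of 247 pairs (71.3%) pointed towards each other, 64 shared a strand and 7 pointed apart. By span, 26 of 35 pairs pointed inward from 400 to under 600 kb, 14 of 20 from 600 to under 800 kb, 5 of 8 from 800 to under 1000 kb and 13 of 13 at 1000 kb and over. The 13 pairs include the 3 loops at *Bcl6* and 2 loops that share a right anchor on chromosome 12, so they are not 13 independent sites. With the search widened by 5 kb on each side of an anchor, 136 loops (13.0%) had a core at both ends and 79 of 113 ordered pairs (69.9%) pointed inward.

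**Figure D2:**
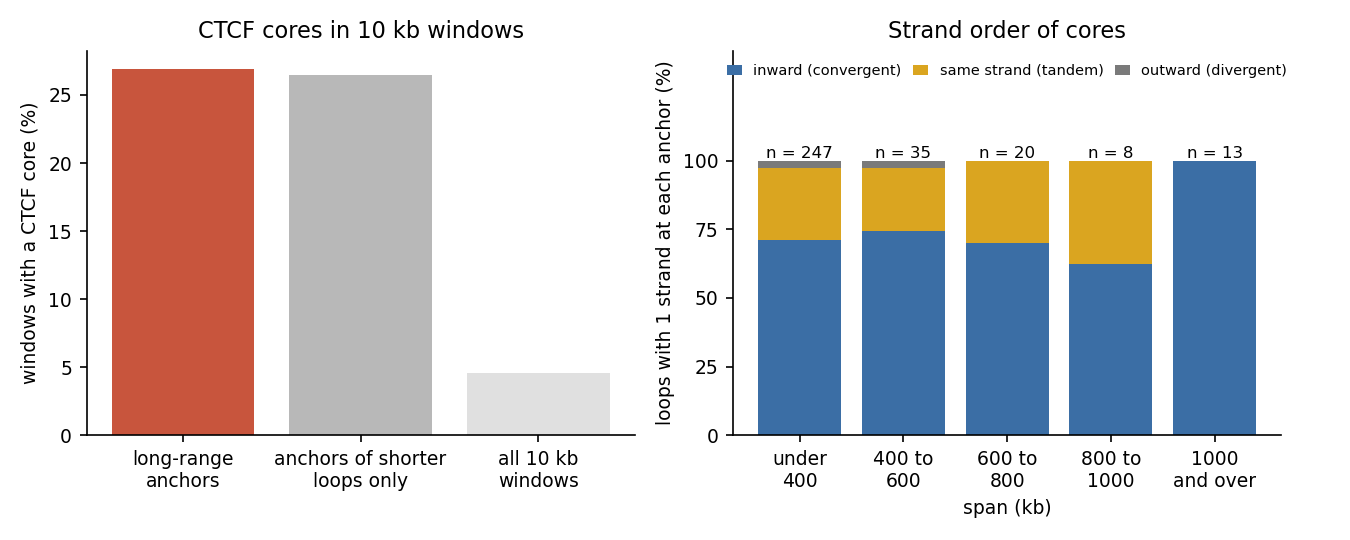
Left, percentage of 10 kb windows that hold a CTCF core: 26.9% of long-range anchors, 26.5% of anchors of shorter loops only and 4.57% of all windows. Right, strand order of cores in loops with cores of 1 strand at each anchor, as percentages by span, with the number of loops above each bar; all 13 pairs at 1000 kb and over point inward.

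The anchor shared by the largest number of long-range loops, 5, lies on chromosome 11 from 112770001 to 112780000 and ends 2.2 kb before the start site of *Sox9*. SOX9 is the transcription factor that sets Sertoli cell fate, and its gene is preceded by a wide gene desert that holds distant enhancers. The 5 loops reached 420, 560, 870, 1120 and 1240 kb into that desert, in which no protein-coding gene starts. Another pair of loops, of 1260 and 1630 kb, began at the desert anchors of the 870 and 1240 kb loops, passed over *Sox9* and ended at 1 shared anchor 383 kb beyond its start. A shorter loop of 390 kb joined the anchor beside *Sox9* to that same far anchor, so the 3 anchors closed a triangle. The anchor beside *Sox9* has no CTCF core, while the desert anchors of the 870 kb loop (plus strand) and the 1240 kb loop (both strands) do. *Sox9* stood at 229, 317 and 231 CPM in control libraries and at 144, 177 and 296 CPM in null libraries. The ranges overlap, and the log2 fold change of -0.33 did not pass the test (adjusted p = 0.521).

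**Figure D3:**
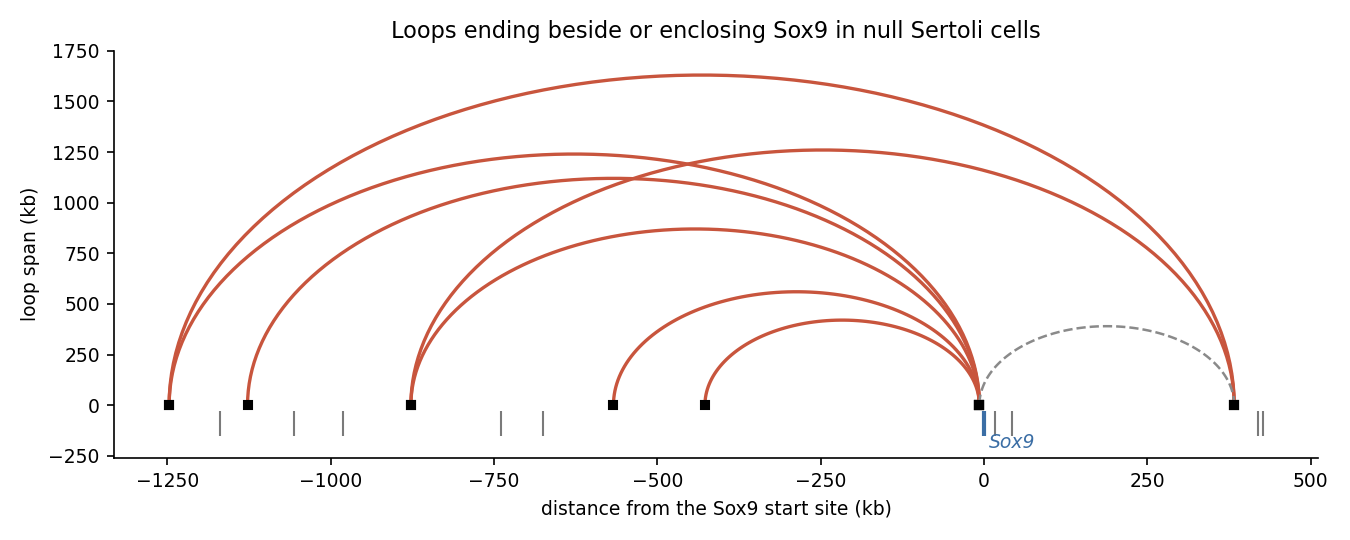
Long-range loops (red) that end beside or enclose *Sox9*, and 1 shorter loop (grey, dashed), drawn by distance from the *Sox9* start site in kb, with the height of each arc equal to its span in kb. Squares are anchor centres and vertical ticks are annotated start sites (blue, *Sox9*); 5 red arcs meet at the anchor just left of *Sox9*, and the ticks to its left are noncoding genes and pseudogenes.

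An anchor with 4 long-range loops was found at each of 3 genes, *Gja1*, *Plk2* and *Bcl6*. The *Gja1* anchor on chromosome 10 (56370001 to 56380000) reached 620, 630, 810 and 1070 kb to the right, and the *Plk2* anchor on chromosome 13 (110390001 to 110400000) reached 470, 570, 840 and 1020 kb to the right. Neither of the 2 windows holds a CTCF core. *Plk2*, a kinase gene, had 76.7 ± 24.1 CPM in control libraries and 69.5 ± 2.08 CPM in null libraries (SD, n = 3 each), a difference within the spread (adjusted p = 0.754). *Gja1* changed and is described with the other called genes. The *Sox6* anchor on chromosome 7 had 3 long-range loops, of 660, 820 and 1110 kb, each of which ran along the whole body of this SOX family gene and past its far end. The annotated 5′ end of *Sox6* lies in the anchor, while its principal transcripts start 44 kb or more inside the gene.

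Genes were assigned to an anchor by their start site, the annotated 5′ end of the gene. A gene is called inside a loop where its start site lies between the anchors, even if its body runs out of the loop. An annotated start site of any kind lay in 22.5% of long-range anchors, in 30.5% of anchors of shorter loops only and in 16.6% of all 10 kb windows. Start sites of protein-coding genes lay in 11.7%, 19.3% and 7.38% of the same windows. Of the 1049 loops, 59 had a start site at both anchors, 369 at 1 anchor and 621 at neither. In all, 537 genes (236 protein-coding) start at long-range anchors, and 152 of them had no count in any of the 6 libraries. The filter on low counts left 185 of the 537 for testing. Their level in control cells, as log2(RPKM + 0.1) with RPKM taken per kb of exon, had a median of 1.98 (quartiles 0.43 and 3.93). Medians of the same level were 2.26 for the 1275 tested genes inside long-range loops, 2.75 for the 994 at anchors of shorter loops only and 2.65 for all 14013 genes tested.

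The highest RPKM levels at long-range anchors belonged to genes of general or signaling function. *Eef2*, which encodes a translation elongation factor, led with 1031 RPKM in control cells and anchored a loop of 1020 kb. *Jun*, a transcription factor of the AP-1 complex, had 221 RPKM and 2 loops (580 and 820 kb), and *Klf6*, a zinc finger transcription factor, had 204 RPKM and 2 loops (610 and 1090 kb). *Basp1* had 168 RPKM and 1 loop of 820 kb. *Edn1*, which encodes the signaling peptide endothelin 1, had 152 RPKM and 2 loops (520 and 660 kb). Of these 5 genes *Basp1* was called between genotypes, while *Eef2* (log2 fold change -0.40), *Jun* (0.44), *Klf6* (0.80) and *Edn1* (-0.57) were not, with adjusted p of 0.273, 0.374, 0.0882 and 0.108.

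Between genotypes, 21 of the 185 tested genes at long-range anchors (11.4%) were called at an adjusted p below 0.05 and a change of more than 2-fold, against 4.56% of all genes tested. Of the 21, 15 were higher in null cells, where the share over all genes was 2.56%, and 6 were lower, where it was 2.0%. The 3 libraries of each group did not overlap for 76 of the 185 genes (41.1%), against 27.9% of all genes. The median log2 fold change was 0.15 at long-range anchors and -0.01 over all genes. Inside the loops, and at none of their anchors, 101 of 1275 tested genes (7.92%) were called, 64 higher and 37 lower, and 56 of 994 (5.63%) were called at anchors of shorter loops only. Genes in none of these places were called in 483 of 11686 cases (4.13%). When only genes with their whole body between the anchors were counted as inside, 77 of 1108 tested genes (6.95%) were called. At a mean of 20 CPM or more over both groups, 12 of 101 genes at long-range anchors (11.9%) and 3.95% of all genes were called. A gene high in a single group passes the filter more easily, and it can pass this cutoff too, so the cutoff does not remove that bias. With genes assigned by the start of their principal transcript, an alternative chosen after the data were seen, 20 of 191 tested genes (10.5%) were called at long-range anchors. The number at long-range anchors was 10 without null replicate 3 and 41 without control replicate 2, while the share over all genes moved to 1.89% and 6.72%. Nothing in the labels says that replicates came from separate cell isolations, so p-values measure the spread between these libraries.

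**Figure D4:**
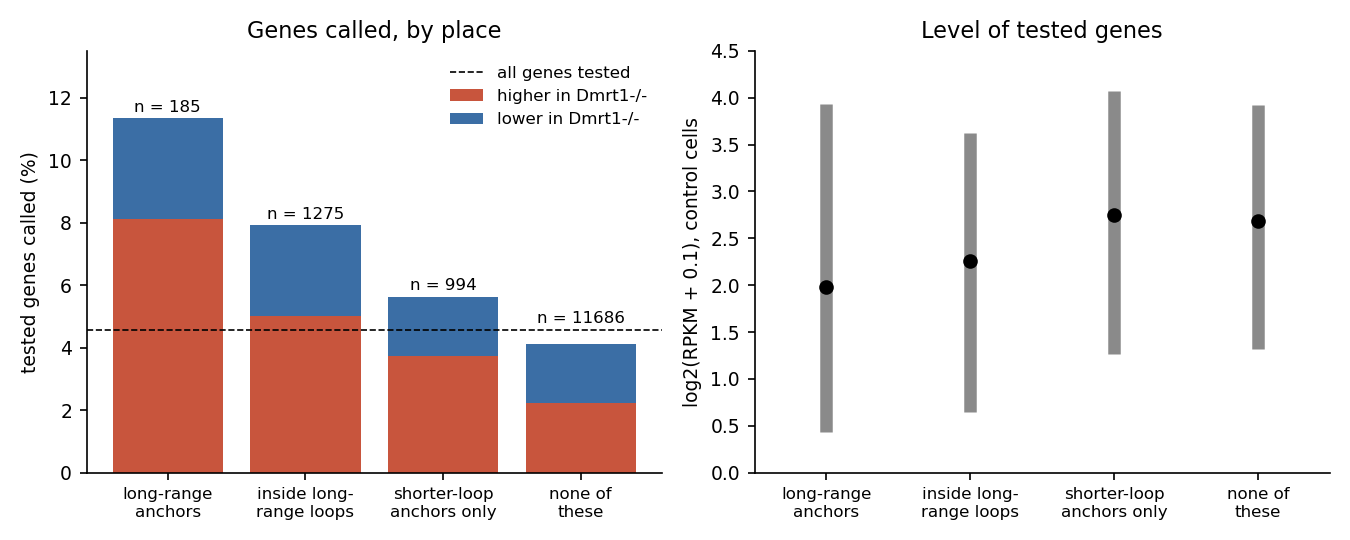
Left, percentage of tested genes called higher (red) or lower (blue) in *Dmrt1*-/- Sertoli cells by place of the start site, with the number tested above each bar and 4.56% over all genes dashed; the bar at long-range anchors reaches 11.4%. Right, median (point) and quartiles (bar) of log2(RPKM + 0.1) in control cells for the same genes, with a median of 1.98 at long-range anchors.

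The genes lower in null cells at long-range anchors include cell contact genes of the Sertoli epithelium. *Gja1*, which encodes the gap junction protein connexin 43, had 1183, 1382 and 1315 CPM in control libraries and 424, 438 and 469 CPM in null libraries. *Cldn11*, which encodes the claudin of Sertoli tight junctions, had 261, 138 and 356 CPM in control libraries and 42.4, 44.0 and 45.8 CPM in null libraries. Every null library was below every control library for both genes, with log2 fold changes of -1.54 (SE 0.16, adjusted p = 0.00196) and -2.52 (SE 0.31, adjusted p = 0.00403). The 4 *Gja1* loops contain no protein-coding start site, and the 2 *Cldn11* loops (460 and 640 kb) contain 1. *Bambi*, a decoy receptor that dampens TGF-β signaling, anchored a loop of 860 kb. It had 93.9, 103 and 88.3 CPM in control libraries against 24.0, 21.9 and 21.9 CPM in null libraries. Its log2 fold change of -2.07 (SE 0.15) had the smallest adjusted p of any gene at these anchors, 0.000724. *Basp1*, a membrane-associated signaling protein gene, fell from 295, 164 and 556 CPM to 22.2, 39.7 and 47.7 CPM (log2 fold change -3.22, SE 0.47, adjusted p = 0.00750). *Rgs22*, a member of the regulators of G protein signaling, fell from 11.2, 4.07 and 21.0 CPM to 0.872, 1.17 and 0.409 CPM (log2 fold change -3.84, adjusted p = 0.0150), and stood at the right end of loops of 850 and 1610 kb. The sixth gene, *Gm45716*, is a predicted protein-coding gene at a loop of 430 kb, with a log2 fold change of -1.69 (adjusted p = 0.0138). It was not called without control replicate 3 or null replicate 2 or 3.

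Genes higher in null cells at long-range anchors were mostly low in control cells. *Bhlhe22*, which encodes a basic helix-loop-helix transcription factor, had 1.90, 0.708 and 0.573 CPM in control libraries and 27.2, 30.1 and 34.0 CPM in null libraries (log2 fold change 4.76, SE 0.41, adjusted p = 0.00109). *Epha4*, an ephrin receptor gene, had 0.949, 1.06 and 0.573 CPM in control libraries and 8.94, 7.24 and 11.3 CPM in null libraries (log2 fold change 3.39, SE 0.40, adjusted p = 0.00317). *Foxc1*, a forkhead transcription factor gene, had 0.237, 0.354 and 0.573 CPM in control libraries and 2.18, 4.89 and 10.0 CPM in null libraries (log2 fold change 3.80, SE 0.70, adjusted p = 0.0186). The groups do not overlap for any of these 3 genes, and the fold changes rest on very few control reads. *Foxc1* was not called without control replicate 1 or 3 or null replicate 3. The *Epha4* loop of 1860 kb, among the longest of all, contains no protein-coding start site. *Foxc1* anchored loops of 410 and 610 kb and *Bhlhe22* a loop of 570 kb.

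*Tgfb2*, which encodes a TGF-β ligand, had 5.93, 6.02 and 4.01 CPM in control libraries and 17.2, 33.1 and 32.3 CPM in null libraries (log2 fold change 2.36, SE 0.33, adjusted p = 0.00646). *Fgfr2*, which encodes a receptor for fibroblast growth factors, had 3.80, 4.78 and 3.29 CPM in control libraries and 15.1, 15.3 and 17.2 CPM in null libraries (log2 fold change 2.00, SE 0.27, adjusted p = 0.00594). *Axin2*, a feedback target of WNT signaling, had 31.4, 36.8 and 38.5 CPM in control libraries and 67.1, 70.9 and 110.7 CPM in null libraries (log2 fold change 1.22, SE 0.22, adjusted p = 0.0179). All null libraries lay above all control libraries for the 3 genes. *Axin2* was not called without control replicate 1 or 3 or null replicate 3. *Fgfr2* is at its anchor only through 1 of 27 annotated transcripts, and its principal transcript starts 2857 kb away and outside the loop, so the usual *Fgfr2* promoter is not at a long-range anchor. *Jag1*, a Notch ligand gene, rose by a log2 fold change of 1.63 (adjusted p = 0.0426) and anchored a loop of 620 kb without a protein-coding start site inside. It was not called without control replicate 1 or 3 or null replicate 2 or 3, where the log2 fold change was 1.36 to 1.56.

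*Sema5a*, a semaphorin gene, anchored loops on both sides, 630 kb to the left and 480 kb to the right. It had 106, 107 and 88.8 CPM in control libraries and 293, 285 and 458 CPM in null libraries (log2 fold change 1.78, SE 0.22, adjusted p = 0.00359). *Sema3a*, which encodes a secreted semaphorin, had 11.2, 15.6 and 2.86 CPM in control libraries and 53.5, 66.5 and 51.8 CPM in null libraries (log2 fold change 2.55, SE 0.47, adjusted p = 0.0190). Its annotated 5′ end lies at the loop of 560 kb, while its nearest principal transcript starts 271 kb away, at the right anchor of an 830 kb loop that shares the left anchor. Both semaphorin genes had groups without overlap, and *Sema5a* was the more abundant of the 2 called members per kb of exon, at 5.38 against 0.711 RPKM in control cells. *Kcnj2*, an inwardly rectifying potassium channel gene on the far side of the *Sox9* desert, also anchored loops on both sides, 530 kb to the left and 460 kb to the right. It had 2.61, 3.72 and 1.57 CPM in control libraries and 11.2, 13.1 and 18.6 CPM in null libraries (log2 fold change 2.44, SE 0.39, adjusted p = 0.0103).

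The other called anchor genes were higher by log2 fold changes of 1.00 to 3.10. *Parm1*, which encodes a mucin-like membrane protein, had 7.36, 10.4 and 2.15 CPM in control libraries and 52.4, 43.6 and 74.1 CPM in null libraries (log2 fold change 3.10, adjusted p = 0.00836). *Setbp1*, a nuclear protein gene, rose by 2.45 on the log2 scale (adjusted p = 0.00981). *Zfpm2*, also called *Fog2*, encodes the cofactor through which GATA4 acts in the early gonad, and had 42.8, 64.6 and 30.9 CPM in control libraries and 80.1, 112 and 116 CPM in null libraries (log2 fold change 1.16, adjusted p = 0.0461). *Zfp608*, a zinc finger gene, and *Serpinb9*, a granzyme B inhibitor gene, had log2 fold changes of 1.00 (adjusted p = 0.0154) and 1.02 (adjusted p = 0.0495). The last of these values lie close to the thresholds. *Zfpm2* and *Serpinb9* were not called when any of 5 single libraries was left out, and *Zfp608* was not called without control replicate 3 or null replicate 3 (log2 fold change 0.92 in each), without the filter on low counts (0.98) or with the replicate number as a block.

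**Figure D5:**
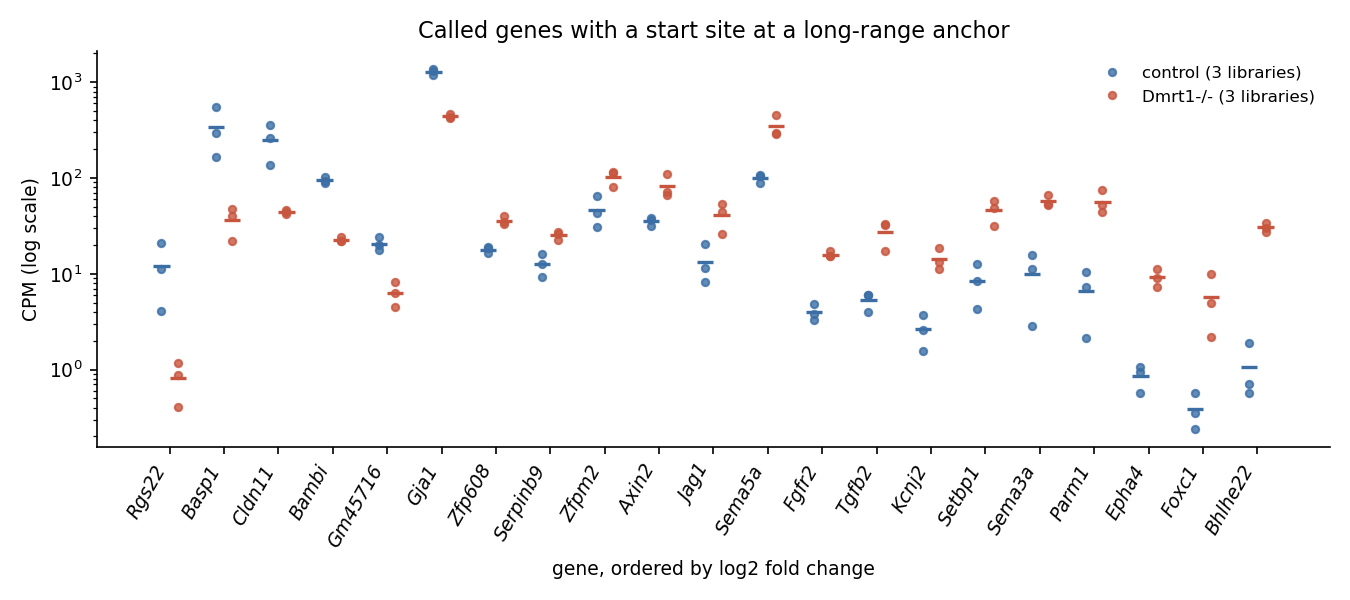
CPM (log scale) of the 21 called genes with a start site at a long-range anchor in each of 3 control (blue) and 3 *Dmrt1*-/- (red) libraries, ordered by log2 fold change, with bars at the group means. The groups do not overlap for any of the genes shown, which follows in part from how genes are called.

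A called gene stood at an anchor of 29 long-range loops (2.8%), and no loop had a called gene at both anchors. In 16 of the 29 loops (55.2%) no protein-coding gene starts between the anchors. The same held for 71 of the 190 loops with a tested gene at an anchor (37.4%) and for 174 of all 1049 loops (16.6%). Some of these loops share an anchor, and the 16 include the 4 loops of *Gja1*, so they are not independent loci. Tested genes stood at both anchors of 13 loops, in 21 pairs. In 3 of these loops a called gene faced a gene that was not called: *Rgs22* (log2 fold change -3.84) faced *Osr2* (-0.15), the outlying *Fgfr2* start (2.00) faced *Edrf1* (-0.49) and *Parm1* (3.10) faced *Gm43039* (-0.03). The principal transcript of *Osr2* starts 4 kb from the gene's annotated 5′ end and at no long-range anchor. *Bmi1*, which encodes a Polycomb protein, faced *Mllt10* over 620 kb, with 83.4 ± 8.32 CPM in control libraries and 105 ± 25.3 CPM in null libraries (SD, n = 3 each, adjusted p = 0.359).

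Genes of developmental transcription factor families (HOX, SOX, FOX, IRX, DLX, GATA and others, by the start of their symbol) were among the genes at these anchors. They made up 20 of the 236 protein-coding genes at long-range anchors (8.47%), 24 of 1193 at anchors of shorter loops only (2.01%) and 271 of all 21897 (1.24%). No test was made of these shares, and family members lie in clusters. Most were silent or nearly so in Sertoli cells, with 8 of the 20 passing the filter and *Foxc1* alone called. Of all 271 family members 124 were tested, and 7 were called higher and 3 lower (2.56% and 2.0% over all genes). The *Hoxd* cluster had *Hoxd13* at a loop of 600 kb to the left, *Hoxd8* at 890 kb to the right and *Hoxd3* and *Hoxd4* at 430 kb to the right. Loops thus left the cluster towards both flanks. *Irx3* and *Irx5*, neighbouring homeobox genes that act in granulosa cells, faced each other across a loop of 550 kb, with mean levels of 0.902 and 0.0791 CPM in control libraries and 0.473 and 0.0363 CPM in null libraries. The *Hox* and *Irx* loops were named after their values were seen. *Sox6* had 53.4, 54.2 and 47.1 CPM in control libraries and 91.0, 86.3 and 103 CPM in null libraries (log2 fold change 0.86, adjusted p = 0.0143), which is under the 2-fold limit. *Foxc2*, at a loop of 400 kb, differed by -1.47 on the log2 scale, not past the test (adjusted p = 0.0910).

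Of 28 granulosa cell genes in a list, 7 (*Gja1*, *Fgfr2* by the outlying start, *Inhba*, *Fst*, *Bmp2*, *Irx3* and *Irx5*) start at long-range anchors, 8 lie inside long-range loops and 0 start at anchors of shorter loops only. Over the whole list, 21 were tested, 4 were called higher and 3 lower (2.56% and 2.0% over all genes), and the median log2 fold change was 0.33 (-0.01 over all genes). The list shares *Fshr*, *Kitl* and *Nr0b1* with the Sertoli list below. *Gja1* and *Fshr*, which are also genes of Sertoli cells, are among the 3 called lower. *Gja1* was lower and *Fgfr2* higher, so the 2 called members at anchors went opposite ways. *Inhba*, which encodes the activin subunit, anchored loops of 750 and 1420 kb and had 0.712, 11.3 and 1.72 CPM in control libraries and 13.0, 61.5 and 13.9 CPM in null libraries. Its groups do not overlap but its spread is wide, and the log2 fold change of 2.74 (SE 0.96) did not pass (adjusted p = 0.143). The follistatin gene *Fst*, whose product binds activin, anchored a loop of 580 kb and differed by -1.46 on the log2 scale, not past the test (adjusted p = 0.165). Of 32 Sertoli genes, *Cldn11* alone starts at a long-range anchor and 7 lie inside the loops, and of the 30 tested over the list 0 were called higher and 8 lower by edgeR, against 2.56% and 2.0% of all genes. *Dazl*, a germ cell gene at a loop of 500 kb, and *Pdgfra*, a stromal receptor gene at loops of 720 and 840 kb, were not called (adjusted p = 0.757 and 0.457). *Emx2*, a gonad development gene at a loop of 700 kb, had too few counts to be tested, at 0.237, 0 and 0.143 CPM against 1.63, 0.587 and 2.86 CPM.

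Genes inside the loops were named by the smallest adjusted p in each direction. *Foxl2*, the transcription factor that maintains granulosa cells, lies in a loop of 450 kb on chromosome 9 (98610001 to 99070000). It had 0.356, 0 and 0.286 CPM in control libraries and 16.9, 11.5 and 30.3 CPM in null libraries (log2 fold change 6.28, SE 0.65, adjusted p = 0.00189). *Foxl2os*, the divergent noncoding gene that starts within the same few bases, had 0.237, 0 and 0.143 CPM against 17.9, 7.83 and 21.1 CPM (log2 fold change 6.62, adjusted p = 0.00182). Both genes went from near 0 in control cells to clear RNA in every null library, and the control values are too few reads for an exact fold. The right anchor of the *Foxl2* loop holds a CTCF core on the plus strand, which points out of the loop, and the left anchor holds none.

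Other genes inside the loops that were higher in null cells encode proteins of cell adhesion and of the nervous system. *Ncam1*, an adhesion molecule gene whose start site lies in 3 loops of 560, 680 and 940 kb, had 2.02, 2.48 and 2.15 CPM in control libraries and 20.2, 16.0 and 17.8 CPM in null libraries (log2 fold change 3.02, SE 0.28, adjusted p = 0.00146). Its body runs out past the left anchor of the 560 kb loop. *Ptprz1*, a receptor tyrosine phosphatase gene, starts in a loop of 660 kb, and *Neto2*, an auxiliary subunit gene of kainate receptors, starts just inside loops of 780 and 890 kb. Their log2 fold changes were 2.68 and 2.37. Their adjusted p were 0.00160 and 0.00189, and their groups did not overlap. Nearly all of the *Neto2* body lies in the left anchor or beyond it, outside both loops, and the *Ptprz1* body runs out past the right anchor.

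Among the genes inside loops that were lower in null cells, *Sh3gl2*, which encodes an endophilin of vesicle formation, had 149, 137 and 144 CPM in control libraries and 6.65, 12.3 and 11.0 CPM in null libraries (log2 fold change -3.86, SE 0.24, adjusted p = 0.000486) within a loop of 640 kb. *Igfbp3*, which encodes an insulin-like growth factor binding protein, had 116, 88.5 and 112 CPM against 4.90, 9.98 and 6.34 CPM (log2 fold change -3.92, adjusted p = 0.000637) within loops of 1100 and 1200 kb. *Tox*, a chromatin protein gene, had 26.2, 23.2 and 37.7 CPM against 0.327, 0.979 and 0.205 CPM (log2 fold change -5.87, adjusted p = 0.000888) within a loop of 1520 kb. These 3 genes lost nearly all of their RNA, with null libraries far below every control library. *Tgfbi* (790 kb), a matrix protein gene, *Plxnc1* (850 kb), a semaphorin receptor gene, and *Plekhg1* (400 kb) had log2 fold changes of -3.41, -2.28 and -2.22, with adjusted p of 0.00107, 0.00169 and 0.00214. The *Plekhg1* body runs out past the right anchor of its loop, and the *Igfbp3* body ends in the left anchor of its loops.

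Of 26 sex-determination genes in a list, 1 (*Emx2*) starts at a long-range anchor and 9 lie inside the loops. Of the 8 tested inside, *Foxl2* was called, against 7.92% of all tested genes inside the loops and 4.56% of all genes tested. Over the whole list 23 were tested, and 3 were called higher and 4 lower (2.56% and 2.0% over all genes). *Fshr*, the receptor for follicle stimulating hormone on Sertoli cells, is no member of that list, was chosen after its values were seen, and lies within loops of 1550 and 1630 kb on chromosome 17. It had 120, 121 and 91.3 CPM in control libraries and 41.0, 32.5 and 43.6 CPM in null libraries (log2 fold change -1.50, adjusted p = 0.00359). *Nr5a2*, a nuclear receptor gene of granulosa cells within a loop of 670 kb, had 7.12, 5.31 and 12.9 CPM against 1.74, 2.94 and 3.27 CPM, lower in every null library but not past the test (log2 fold change -1.70, adjusted p = 0.0628). *Amh*, *Kitl*, *Gdnf* and *Inhbb*, Sertoli genes for secreted factors that lie inside long-range loops, had log2 fold changes of 0.07, 0.06, -0.19 and 0.21, none past the test.

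The machinery of loop formation was counted next. Of 26 genes for CTCF, cohesin, its loaders and releasers and other architectural factors, 24 were tested and 0 were called by edgeR or DESeq2 in either direction (5 in edgeR at an unadjusted p under 0.05, or 20.8% against 21.4% of all genes), with a median log2 fold change of 0.10. *Maz*, *Rad21*, *Wapl* and *Ldb1* had the highest RPKM in control cells (89.4, 83.3, 28.9 and 27.5). *Rad21*, which encodes the cleavable cohesin subunit, had 366, 360 and 332 CPM in control libraries and 276, 303 and 254 CPM in null libraries, lower in every null library with a log2 fold change of -0.34 that did not pass (adjusted p = 0.217). *Wapl*, the cohesin release factor gene, had 191 ± 15.1 CPM against 216 ± 21.0 CPM (SD, n = 3 each, adjusted p = 0.530). Of 30 Polycomb genes, all tested, 0 were called by edgeR or DESeq2 (1 in edgeR at an unadjusted p under 0.05, or 3.33% against 21.4% of all genes), with a median log2 fold change of -0.06. Since 4.56% of all genes were called, lists of these sizes would hold few called genes in any case, and nothing is read from either count of 0.

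Markers of other cell types were summed in each library. Summed CPM over 12 stromal and peritubular myoid markers was 41.3, 61.6 and 330 in control libraries, sorted from low to high, and 112, 145 and 422 in null libraries, with replicate 2 highest in each group. Over 11 endothelial markers the sums were 17.3 to 21.3 in control and 31.9 to 57.9 in null libraries, without overlap, over 11 Leydig markers 176 to 266 and 244 to 328, and over 11 macrophage markers 10.2 to 14.0 and 10.0 to 16.2. The 20 germ cell markers summed to 539 to 921 in control and 274 to 632 in null libraries, and the 32 Sertoli markers to 9639 to 10805 and 7821 to 10078. No marker in these lists was at 0 in all 6 libraries. Their part in the results was not tested, and in bulk RNA fewer cells of a type and less RNA per cell cannot be told apart.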

How the data were processed

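Hi-C of P7 *Dmrt1*-/- Sertoli cells was deposited as 1 list of interaction windows (positions only) for 4 samples together. Libraries came from a restriction-based kit and were processed with HiC-Pro on GRCm38 (version 3.1.0 in the submitters' processing notes, while the study's methods give another), and per the methods interactions were called with cooltools. For RNA, the authors trimmed reads (Trim Galore 0.6.0, cutadapt 1.18), aligned them with STAR 2.7.2a and deposited raw strand-specific counts per gene made with RSubread. All per-sample columns were mapped to samples (0 left over), and 6 of 30 RNA libraries entered the comparison, with 5043838 to 8965797 counts each.

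Loops were kept where the anchor starts lay 400 kb or more apart. Gene positions came from GENCODE M21 for 55141 of 55401 genes (99.5%), and sequence from the RefSeq copy of GRCm38. Counts were tested over all genes with edgeR 4.0.16 (TMM scaling, filterByExpr, quasi-likelihood test, Benjamini-Hochberg adjustment, R 4.3.3), two-sided, with SE derived from the test statistic. A gene was called at an adjusted p below 0.05 and a change over 2-fold. No test was made over the members as a list. The script was tested on simulated data. DESeq2 1.42.0 and other alternatives are given in the closing section.

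Genes were named by rule: called genes at long-range anchors by adjusted p, the 5 with highest RPKM there, called genes inside loops by adjusted p in each direction, and members of the lists. Predicted genes were passed over, and *Gm45716* is named beyond the rule. The loops, lists and tests were chosen with earlier results of these data known. Compartment tracks and other libraries were not used here. A gene that the naming rule selected is not reported here.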

Additional observations from a re-analysis of the deposited data

How the results depend on the processing

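Of the 21 genes called at long-range anchors, 10 were called in all 11 alternative fits (*Bambi*, *Basp1*, *Bhlhe22*, *Cldn11*, *Epha4*, *Fgfr2*, *Gja1*, *Parm1*, *Sema5a* and *Tgfb2*). The share called at anchors was above the share over all genes in each of the 11. Over all 11 fits, 484 values for named genes kept their direction and side of the threshold, 30 were no longer called, 12 became called and 2 changed sign.

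Without a filter on low counts, 711 genes were called higher and 645 lower (4.42% of genes tested). Of these, 45 were at long-range anchors (32 higher, 13 lower, 11.7% of those tested) and 199 inside the loops (5.09%). With all 30 libraries in 1 fit the numbers were 720 and 559 (5.9%), 42 (30 and 12, 14.5%) and 185 (7.99%). DESeq2 called 6.08% of genes tested, 429 of them lower, and 32 at anchors (15.1%), 23 of them higher. A 300 kb threshold gave 1615 loops. Start sites within 10 kb of an anchor gave 32 called genes of 366 tested (8.74%), and any base of the gene in the anchor 62 of 623 (9.95%). The share over all genes was 4.56%. A core within 5 kb of both anchors was found in 13.0% of loops. The cause of these differences was not tested.

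Leaving out single libraries gave 121 to 574 genes called higher, 153 to 415 lower, 10 to 41 at long-range anchors (6 to 33 higher) and 43 to 143 inside the loops. The numbers at anchors were 17 without control replicate 1, 41 without control replicate 2, 15 without control replicate 3, 19 without null replicate 1, 17 without null replicate 2 and 10 without null replicate 3. In that order they were 8.99, 21.0, 7.94, 10.1, 8.76 and 5.24% of the genes tested there. The shares over all genes were 2.9, 6.72, 2.17, 3.04, 2.82 and 1.89%. The numbers inside were 60, 143, 47, 62, 56 and 43 in the same order (4.58, 10.5, 3.62, 4.71, 4.16 and 3.13% of those tested). For genes that did not pass the test, the log2 fold change of *Dazl* ran from -1.31 to 0.02 (positive without control replicate 3) and that of *Maz* from -0.06 to 0.37 (negative without null replicate 3).

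With the replicate number as a block, 352 genes were called higher and 283 lower, 25 at anchors and 106 inside the loops, with 20 of the 21 anchor calls shared. Correlations of the deviations of same-numbered libraries were 0.505, 0.225 and -0.037. Control replicates 1 and 2 each correlated best with the null library of the same number, and control replicate 3 with null replicate 2 (0.147). The main fit took the libraries as unpaired, and whether same-numbered libraries share a source was not tested.

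The Hi-C list gives no read depth or score, so weak and strong loops cannot be told apart. Genes near 0 counts in 1 group have poorly defined fold changes.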
